A study of Arabidopsis thaliana with 12 samples.

Results

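The miR156 and miR157 precursors were measured in Arabidopsis thaliana leaves. The members are the 10 transcript names MIR156a to MIR156f and MIR157a to MIR157d on the array, chosen by name after removal of a species prefix or a suffix. They are 10 of 5154 transcript names in all, and 10 of the 173 names of microRNA precursors. Total leaf RNA of the wild-type accession Col-0, 0.5 µg per sample, was labelled with the dye Cy3 and hybridised to 12 one-colour Agilent arrays. All plants were 30 days old and had grown at 22 °C, 65% humidity and 145 µmol m-2 s-1 of light in cycles of 8 h light and 16 h dark, so the groups differ, as far as the labels say, only in the hour of sampling. There are 6 time points with 2 arrays each, named light 0 h, light 4 h, light 8 h, dark 12 h, dark 16 h and dark 20 h in the sample titles. The series title speaks of continuous light instead, so light and dark serve here only as names of the time points. Whether the replicates are different plants is not stated in the labels, so the p-values measure the spread between arrays, which may be technical.

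MicroRNAs are cut from longer folded transcripts, the precursors, by the enzyme DCL1. The mature miR156 and its close relative miR157 bind mRNAs of SPL transcription factors and keep them low, which holds a plant in its juvenile phase. Both are abundant in seedlings and decline as the plant ages, after which SPL factors promote adult leaf traits, miR172 and flowering. In Arabidopsis several separate genes encode precursors of this family, and MIR156a and MIR156c are known as main sources of miR156 in the shoot. A probe for a precursor measures the precursor transcript and not the mature microRNA.

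A level is the log2 of the processed spot signal minus the 75th percentile of that array over 2876 probes well above background on all 12 arrays. Levels of different precursors come from different probes and are not set against each other. Adjusted p-values are from limma with Benjamini-Hochberg adjustment over 3302 transcripts, with a threshold of 0.05. The second dark 16 h array stood apart before any test: 52.2% of its probes were well above background, against 26.5 to 41.2% on the other arrays. The arrays lay on 2 slides, with 0 h and 4 h on slide 1 and the other time points on slide 2, so the step from 4 h to 8 h cannot be told apart from the slide. None of the 8 leaf, 3 guard cell, 5 root and 3 flower marker genes looked for matched a probe name in the files used here, so the tissue label was not checked against them.

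Detection differed between the precursors. MIR156a, MIR156c, MIR156d, MIR156e, MIR157a, MIR157b, MIR157c and MIR157d were well above background on all 12 arrays, which makes 8 of 10 members. MIR156b was well above background on 10 of 12 arrays and missed on the first array at 16 h and the second at 20 h. MIR156f was the dimmest member and was well above background on 5 of 12 arrays, namely the second at 0 h, both at 4 h, the second at 8 h and the first at 12 h. At 16 h and 20 h no array measured MIR156f above background, so its values there are only bounds and no fold is given. Every member passed the rule for testing, a probe above background on each of the 2 arrays of some time point, and MIR156f passed it through 4 h. No spot of the members was saturated or marked as an outlier.

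**Figure D1:**
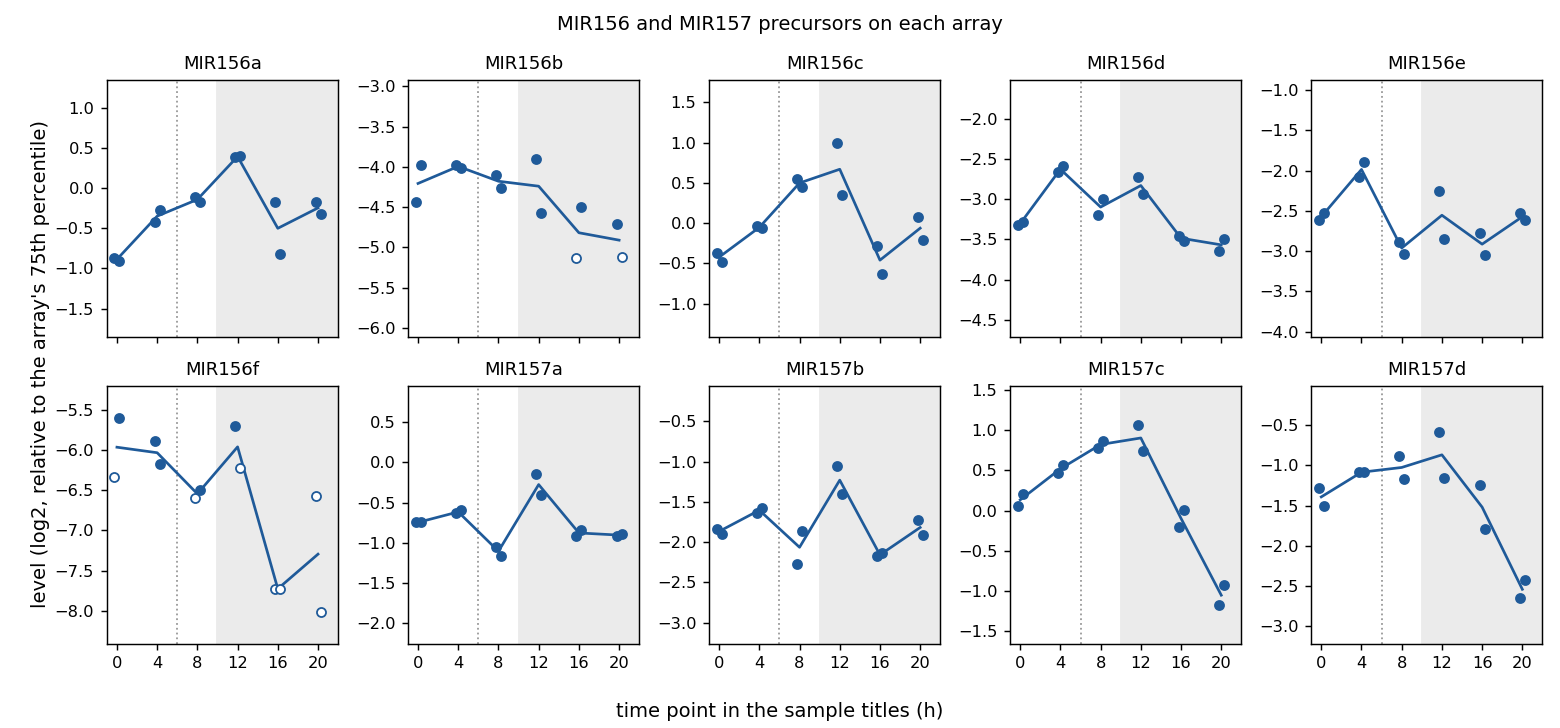
Level of each of the 10 precursors (log2, relative to the array's 75th percentile) at each time point in h, with 1 point per array, open where the probe was not well above background, and a line through the means. Shading marks the time points named dark, the dotted line the change of slide, and every panel spans 3.2 log2 units. MIR156b, MIR156d, MIR157c and MIR157d have their lowest mean at 20 h, and MIR156b, MIR156d and MIR156e have their highest at 4 h.

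MIR157c had the widest measured course of the members that were detected on every array. Its levels were 0.06 and 0.21 at 0 h, 0.47 and 0.57 at 4 h, 0.78 and 0.87 at 8 h, 1.07 and 0.74 at 12 h, -0.20 and 0.01 at 16 h, and -1.18 and -0.92 at 20 h. The 20 h arrays lay below all others and the 8 h and 12 h arrays overlapped at the top, while every other neighbouring pair in the order of means was separate. The mean at 12 h was 3.87-fold that at 20 h, a log2 difference of 1.95 ± 0.21 (SE, 2 arrays each), and the F test over the 6 time points gave an adjusted p of 0.0041. Of all transcripts tested, 14.7% passed this F test, and 3 of the 10 members did. The call held under each of 12 other settings and with each of the 12 arrays left out, with adjusted p between 4.0e-05 and 0.030.

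A second, dimmer probe for MIR157c was also well above background on all 12 arrays. Its mean levels, in the order of the 6 time points, were -2.43, -2.51, -1.87, -2.26, -3.36 and -4.56. Both probes thus had their lowest value at 20 h and their next lowest at 16 h, and they differed in the top, which was 12 h for the brighter and 8 h for the dimmer probe. Between its extremes the dimmer probe differed 6.48-fold.

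MIR157d followed a course like that of MIR157c. Its levels were -1.28 and -1.50 at 0 h, -1.08 and -1.09 at 4 h, -0.89 and -1.16 at 8 h, -0.58 and -1.16 at 12 h, -1.24 and -1.80 at 16 h, and -2.65 and -2.43 at 20 h. Only the 20 h arrays stood clear of the rest, and the arrays of 4 h, 8 h and 12 h overlapped. The mean at 12 h was 3.18-fold that at 20 h, a log2 difference of 1.67 ± 0.28 (SE, 2 arrays each; F test of limma, adjusted p = 0.031). This call was lost when either array at 0 h, 4 h, 8 h or 20 h was left out (adjusted p 0.057 to 0.14), and it was past the threshold in 5 of 12 other settings. The second probe of MIR157d was well above background on 0 of 12 arrays and gives no course.

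MIR156d was the third member past the F test. Its levels were -3.32 and -3.29 at 0 h, -2.67 and -2.59 at 4 h, -3.20 and -3.00 at 8 h, -2.72 and -2.94 at 12 h, -3.45 and -3.52 at 16 h, and -3.64 and -3.49 at 20 h. The 4 h arrays were the highest and the 16 h and 20 h arrays the lowest, and those last time points overlapped. The mean at 4 h was 1.92-fold that at 20 h, a log2 difference of 0.94 ± 0.18 (SE, 2 arrays each; F test of limma, adjusted p = 0.041). These time points lie on different slides, so this difference cannot be told apart from the slide, and within slide 2 the range of means was 0.74 with an adjusted p of 0.22. The call was the least stable of the F test calls: it was past the threshold in 4 of 12 other settings and in none of the 5 that changed the background correction or the scaling. It was lost without either array of 0 h, 4 h, 8 h or 20 h and without the first at 12 h (adjusted p 0.059 to 0.14).

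**Figure D2:**
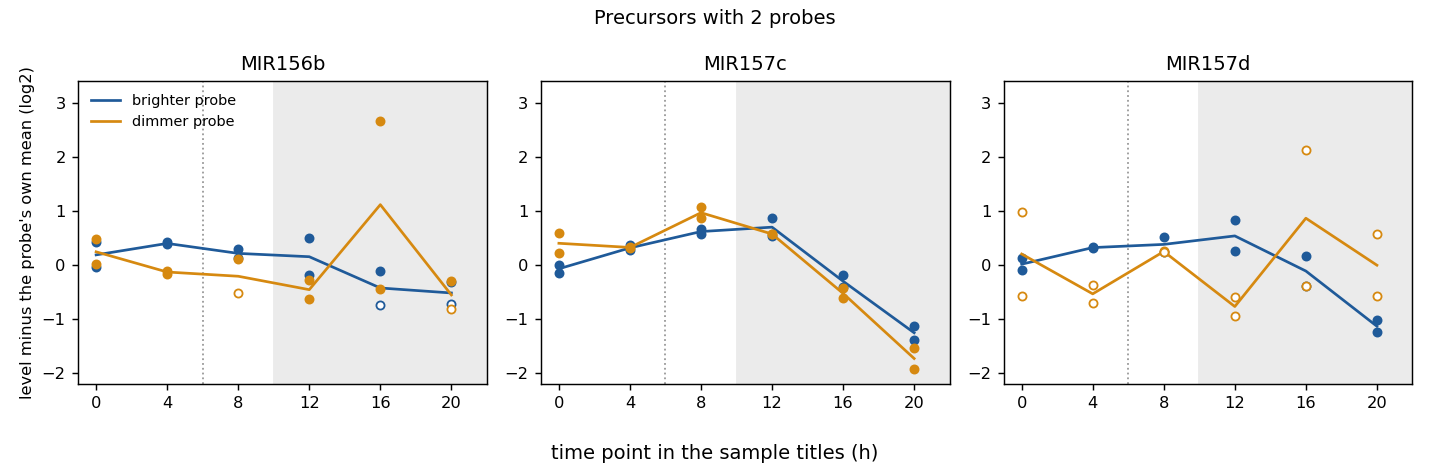
Precursors with 2 probes, each probe's level minus its own mean over the 12 arrays (log2) against the time point in h, with points for arrays, open where not well above background, and lines through the means. For MIR157c both probes are lowest at 20 h; the dimmer probe of MIR157d is open on every array, and the dimmer probe of MIR156b has 1 array at 16 h far above its others.

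MIR156a and MIR156c missed the F test narrowly. The levels of MIR156a were -0.87 and -0.91 at 0 h, -0.43 and -0.27 at 4 h, -0.11 and -0.18 at 8 h, 0.39 and 0.40 at 12 h, -0.18 and -0.82 at 16 h, and -0.17 and -0.32 at 20 h. The 12 h arrays lay above and the 0 h arrays below all others, and the arrays at 16 h, one of which is the array that stood apart, were the widest spread. The difference between 12 h and 0 h, which lie on different slides, was 1.28 ± 0.24 (log2, SE, 2 arrays each; F test of limma, adjusted p = 0.065). MIR156c had levels of -0.37 and -0.48 at 0 h, -0.04 and -0.06 at 4 h, 0.55 and 0.45 at 8 h, 0.99 and 0.35 at 12 h, -0.29 and -0.63 at 16 h, and 0.08 and -0.20 at 20 h. Its 8 h and 12 h arrays were above all others, and its 0 h and 16 h arrays overlapped at the bottom. The difference between 12 h and 16 h was 1.13 ± 0.26 (log2, SE, 2 arrays each; F test of limma, adjusted p = 0.061). Each of the 2 precursors passed the F test in 5 of 12 other settings.

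MIR157a and MIR157b, whose genes are direct neighbours in the gene table, had higher means at 4 h and at 12 h than at 8 h between them. MIR157a had levels of -0.74 and -0.75 at 0 h, -0.63 and -0.60 at 4 h, -1.05 and -1.16 at 8 h, -0.15 and -0.40 at 12 h, -0.91 and -0.84 at 16 h, and -0.92 and -0.89 at 20 h. The 12 h arrays were above and the 8 h arrays below all others. MIR157b had levels of -1.83 and -1.90 at 0 h, -1.63 and -1.57 at 4 h, -2.27 and -1.86 at 8 h, -1.06 and -1.40 at 12 h, -2.18 and -2.14 at 16 h, and -1.72 and -1.91 at 20 h. Its 12 h arrays were again above all others, and the arrays at 8 h and 16 h overlapped at the bottom. Neither passed the F test: the range of means was 0.83 ± 0.18 for MIR157a (limma, adjusted p = 0.088) and 0.93 ± 0.22 for MIR157b (adjusted p = 0.097).

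MIR156e, MIR156b and MIR156f did not pass the F test either. MIR156e had levels of -2.62 and -2.53 at 0 h, -2.08 and -1.89 at 4 h, -2.88 and -3.04 at 8 h, -2.26 and -2.85 at 12 h, -2.78 and -3.05 at 16 h, and -2.53 and -2.62 at 20 h. Its 4 h arrays stood above the rest, and its means ranged over 0.98 ± 0.24 (log2, SE, 2 arrays each; limma, adjusted p = 0.12). The fall from 4 h to 8 h that spans this range also spans the change of slide.

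MIR156b, dim and not always detected, had levels of -4.44 and -3.97 at 0 h, -3.97 and -4.01 at 4 h, -4.10 and -4.26 at 8 h, -3.90 and -4.58 at 12 h, -5.13 and -4.50 at 16 h, and -4.71 and -5.11 at 20 h. The arrays of 16 h overlapped those of 12 h and of 20 h, and the range of means was 0.92 ± 0.33 (limma F test, adjusted p = 0.21). Its second probe was well above background on 10 of 12 arrays, with a level of -2.73 on the second array at 16 h, the array that stood apart, and between -6.21 and -4.93 on the 11 others. By one probe or the other MIR156b was above background on all 12 arrays.

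MIR156f had levels of -6.33 and -5.60 at 0 h, -5.89 and -6.18 at 4 h, -6.60 and -6.49 at 8 h, -5.70 and -6.23 at 12 h, -7.73 and -7.72 at 16 h, and -6.57 and -8.02 at 20 h. The values at 16 h lay under those of 0 h to 12 h, but neither they nor those of 20 h were above background. The F test of limma on these signals, adjusted p = 0.085, rests in part on such values, so no size is given for its course.

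Over all members, 9 of 10 had an unadjusted p under 0.05 in the F test, and only MIR156b did not. The same held for 70 of the 121 precursors tested (57.9%) and for 35.8% of all transcripts. The median range of means was 0.98 (log2) for the 9 members other than MIR156f, 1.29 for the precursors tested and 1.38 for all 3302 transcripts. Among the 121 precursors 37 passed, or 30.6%, next to 3 of 10 here. MIR156g and MIR156h, the other names of the family on the array, were well above background on 8 and 12 arrays and had adjusted p-values of 0.14 and 0.19 (limma F test).

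**Figure D3:**
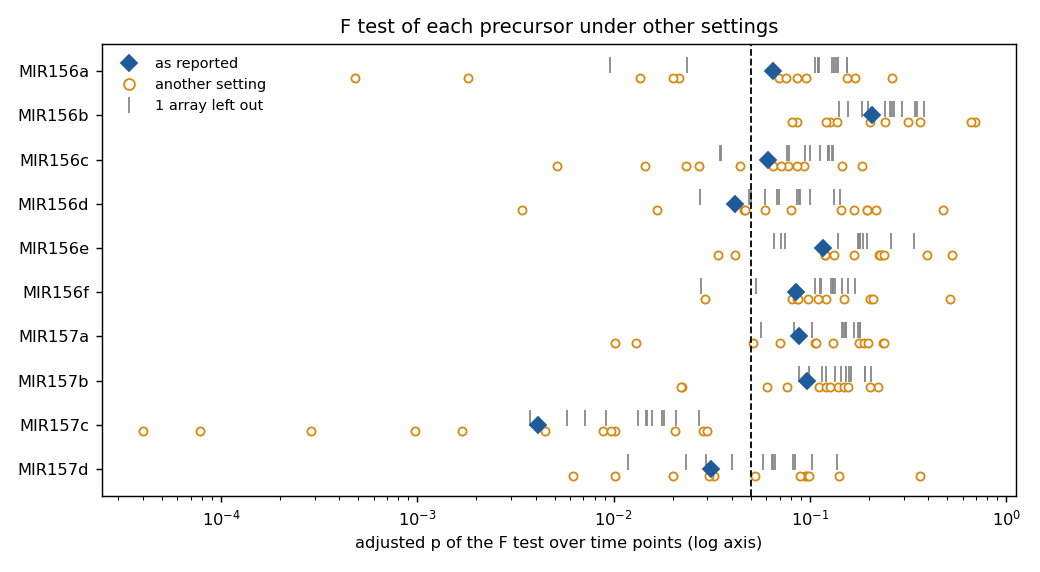
Adjusted p of the limma F test over the 6 time points (log axis) for each precursor, as reported (diamond), under another setting (circle) and with 1 array left out (bar), with a dashed line at 0.05. Only MIR157c stays left of the line throughout.

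The highest mean fell at 12 h more often than at any other time point, but seldom by a clear margin. The mean was highest at 12 h for 7 members and at 4 h for MIR156b, MIR156d and MIR156e, whereas 10.4% of all transcripts tested were highest at 12 h. In 3 of the 7, MIR156a, MIR157a and MIR157b, both 12 h arrays lay above those of the next highest time point, and in MIR156c, MIR156f, MIR157c and MIR157d they overlapped them. Without the first 12 h array the count fell from 7 to 3 (9.87% of all transcripts), and under the other settings it lay between 4 and 9. The 4 came with normexp, where 5.45% of all transcripts were highest at 12 h. The 9 came with the percentile over all probes (23.7%) and within slide 2 (19.4%), which holds no array of 0 h or 4 h. The lowest mean fell at 20 h for 4 members, at 16 h for 3 (MIR156f, not above background there, among them), at 8 h for 2 and at 0 h for 1. Of all transcripts 24.9%, 12.7%, 14.1% and 9.3% were lowest at these time points, in that order.

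From 8 h to 12 h, 9 of 10 members were higher, against 43.2% of all transcripts. The count was 6 without the first 12 h array and 6 with another background correction (normexp). MIR157a rose by 0.83 ± 0.18 (log2, SE, 2 arrays each; limma, adjusted p = 0.049), the single call in a step in which 2.09% of all transcripts were called higher. MIR157b had a difference of 0.83 ± 0.22 with an adjusted p of 0.092. For 6 members, MIR156a, MIR156d, MIR156e, MIR156f, MIR157a and MIR157b, both 12 h arrays lay above both 8 h arrays, as they did for 20.1% of all transcripts. Of these, MIR156f was above background on only 1 array at 8 h and 1 at 12 h. The call of MIR157a was past the threshold in 4 of 12 other settings, and it held without either 16 h array (adjusted p = 0.042) and was lost without any of the other 10 arrays (0.068 to 0.23).

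From 12 h to 16 h the 9 members other than MIR156f all had a lower mean. They did so under every scaling except normexp, where 8 of 9 did, and with the mean of both probes where a name has 2, 7 of 9 did. MIR156f was not above background at 16 h and is left out. The share of all transcripts that were lower at this step was 33.6%, but it was 72.7% with the percentile over all probes, 61.6% after quantile normalization, 61.9% in the deposited series table, 60.1% with normexp and quantile normalization and 17.9% with normexp alone. The differences of the 9 members ran from -1.13 to -0.36 with a median of -0.65 (log2), where the median of all transcripts was 0.36. MIR156c fell by 1.13 ± 0.26 (SE, 2 arrays each; limma, adjusted p = 0.037). MIR157b fell by 0.93 ± 0.22 (limma, adjusted p = 0.039) and MIR157c by 1.00 ± 0.21 (adjusted p = 0.027). These are 3 of 10 members, in a step in which 3.3% of all transcripts were called lower, and MIR156a lay just outside with an adjusted p of 0.055. In 8 members both 16 h arrays lay below both 12 h arrays, all but MIR156b and MIR156e and with MIR156f not above background at 16 h, as was so for 15.5% of all transcripts.

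The size of this fall differed between scalings, and so did the median of all transcripts. With the percentile taken over all probes the median of the 9 members was -1.72 and that of all transcripts -0.70, and after quantile normalization the medians were -1.05 and -0.28. With normexp they were -0.53 and 0.17. Relative to all transcripts the members' median was thus -1.01 as reported, -1.01 with the percentile over all probes, -0.77 after quantile normalization and -0.70 with normexp. It was -0.82 with the deposited series table and -0.56 with normexp and quantile normalization. Without the second 16 h array, the one that stood apart, the members' median was -0.64 and that of all transcripts 0.13. All 9 members had a lower mean with any single array left out, but calls were lost. The call of MIR156c held only without the second 12 h or the first 16 h array, and its adjusted p was 0.057 to 0.13 otherwise. MIR157b was lost without either array of 0 h, 4 h, 12 h or 20 h and without the second at 16 h (0.053 to 0.14). MIR157c was lost without either array of 0 h or 4 h, the first at 12 h or the second at 16 h (0.051 to 0.10). All 3 calls were lost with array weights, with no filter on dim probes and within slide 2, and that of MIR157b also with the deposited series table (adjusted p 0.050 to 0.20 over these settings).

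**Figure D4:**
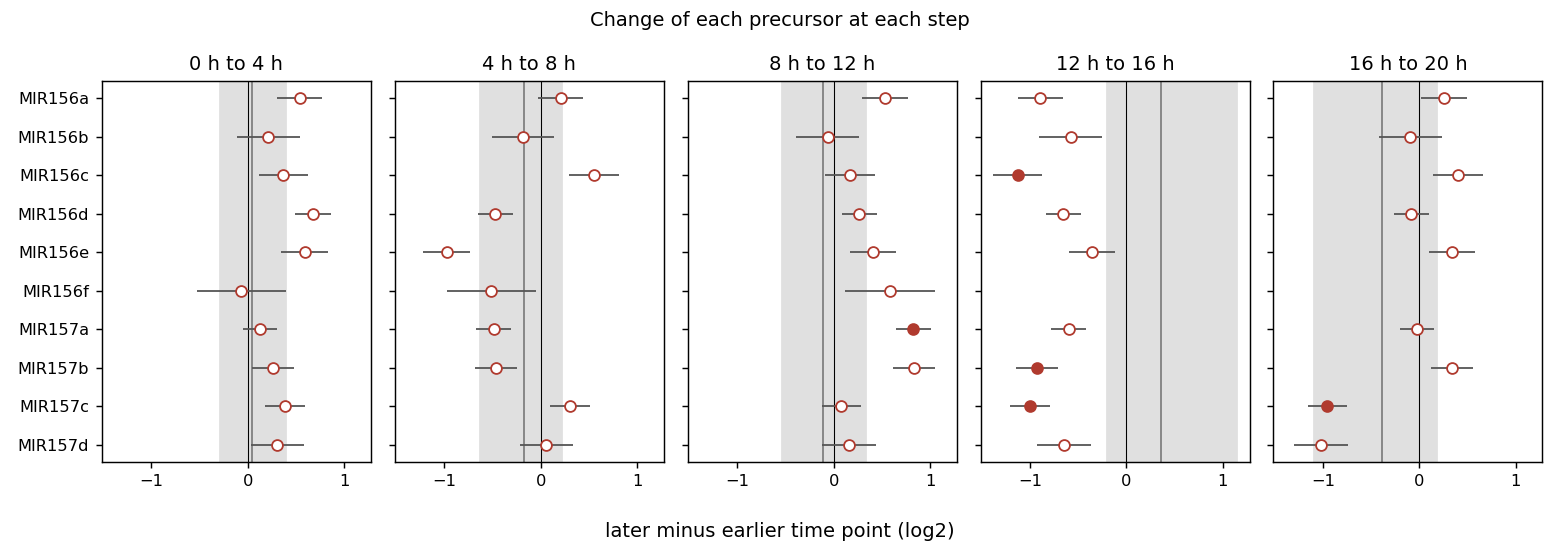
Difference of each precursor between consecutive time points (log2, later minus earlier, ± SE, 2 arrays each; MIR156f is not drawn at the last 2 steps, where it was not above background), filled where the adjusted p of limma is under 0.05, with the median (grey line) and the quartiles (grey band) of all 3302 transcripts. At 12 h to 16 h all 9 points lie below 0 on this scale, where the median of all transcripts is 0.36; with normexp background correction 8 of 9 do, and with the mean of a name's probes 7 of 9.

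At the last step, from 16 h to 20 h, the 9 members other than MIR156f parted, with 4 higher and 5 lower as reported. Of all transcripts 67.1% were lower at this step. The split depended on the scaling. With the percentile over all probes 8 of the 9 were higher (29.1% of all transcripts lower). The count was 7 of 9 with quantile normalization, normexp, both together or the deposited series table (25.3 to 41.3% of all transcripts lower). The values that follow are as reported unless a setting is named. MIR157c fell by a further 0.95 ± 0.21 (log2, SE, 2 arrays each; limma, adjusted p = 0.032), where 5.63% of all transcripts were called lower. Among the 121 microRNA precursors tested 22 were called lower at this step, or 18.2%. MIR157d had a difference of -1.02 ± 0.28 with an adjusted p of 0.059. Both 20 h arrays lay below both 16 h arrays for MIR157c and MIR157d, against 37.8% of all transcripts, and above them for MIR156c, MIR156e and MIR157b, against 18.4%. With the percentile over all probes the difference of MIR157c was 0.01, so its direction at this step rests on the scaling. The call held only without the first 16 h array or either 12 h array, and was lost without any of the other 9 (adjusted p 0.055 to 0.14).

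The first steps held no call among the members. From 0 h to 4 h, 9 of 10 were higher, with a median of 0.34 beside 0.05 for all transcripts. Limma called 0 members in this step, 2 had an unadjusted p under 0.05 (8.78% of all transcripts did), and 0.878% of all transcripts were called. For 8 members both 4 h arrays lay above both 0 h arrays, all but MIR156b and MIR156f, against 29.6% of all transcripts. From 4 h to 8 h, across the slides, 4 were higher and 6 lower, limma called 0 with 3 at an unadjusted p under 0.05 (16.0% of all transcripts were), and 1.3% of all transcripts were called. Both 8 h arrays lay above both 4 h arrays for MIR156a, MIR156c and MIR157c, as for 21.1% of all transcripts. They lay below them for MIR156b, MIR156d, MIR156e, MIR156f, MIR157a and MIR157b, as for 39.1%, and the arrays of MIR157d overlapped. MIR156f was tested only because both its 4 h arrays were above background, so its lower level at 8 h, with 1 array above background, is favoured by that rule. Without MIR156f, 4 members were higher at 8 h and 5 lower. The largest of these differences, in size, was -0.98 ± 0.24 for MIR156e (limma, adjusted p = 0.12).

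Between the time points named dark and those named light, 1 member differed. The mean of MIR157c over the 3 dark time points was lower than that over the 3 light ones by 0.57 on the log2 scale, a difference of -0.57 ± 0.12 (SE, 6 arrays each; limma, adjusted p = 0.022). Of all transcripts 5.42% were called lower in the dark and 4.6% higher. The dark mean joins its highest time point, 12 h, with its lowest, 20 h, and its dark arrays overlap its light arrays. The call was past the threshold in 8 of 12 other settings and was lost without any light array or the first 20 h array (adjusted p 0.056 to 0.076). Within slide 2, which holds 8 h and the dark time points, the difference was -0.90 with an adjusted p of 0.15. The other 8 members apart from MIR156f had differences between -0.53 and 0.34, and none of these was past the threshold. MIR156f, above background on 1 of 6 dark arrays, was not past it either.

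A cosine of 24 h period gave the same member. MIR157c had a fitted peak-to-trough difference of 1.71 (log2) with its peak at 8.2 h (limma, adjusted p = 0.021), in a test that 4.6% of all transcripts passed. MIR157d had 1.33 with a peak at 8.1 h, at an adjusted p of 0.092. MIR157a had 0.16 and MIR157b 0.24, and neither passed. The call of MIR157c was lost without the first 4 h array or either 20 h array.

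Whether 2 precursors differed in course was tested directly on the difference of their levels within each array, which a shift of a whole array cannot change. The test was an exact permutation test of the differences over the 6 time points, with 10395 regroupings of the 12 arrays, two-sided by construction, and Benjamini-Hochberg adjustment over the 45 pairs. It was chosen after the values had been seen. Its smallest possible p is 9.62e-05, and 16 of 45 pairs passed an adjusted p of 0.05, with 25 at an unadjusted p under 0.05. The test was run only among the members, so the share of other pairs of transcripts that would pass is not known. Where 1 time point alone stands far apart, only regroupings that keep its 2 arrays together, a share of 0.0909, can match the observed grouping. How the other arrays pair then sets the p within that share. The slide was not part of the test, so a slide effect that differs between 2 probes stays in it. The highest and lowest mean difference lay on different slides for some pairs that passed. These were MIR156a with MIR156e, MIR157c and MIR157d, and MIR156c with MIR156e, MIR157a, MIR157b and MIR157d. The others were MIR156d with MIR157b and MIR156e with MIR157a. For all these pairs the range of the difference cannot be told apart from the slide.

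MIR157c differed from 6 of the 9 others, namely MIR156a, MIR156b, MIR156d, MIR156e, MIR157a and MIR157b. The difference between MIR157a and MIR157c moved by 2.07 (log2) between 8 h and 20 h (exact permutation test, adjusted p = 0.0072). MIR157d differed from MIR156a, MIR156c, MIR156e and MIR157a, and its difference from MIR156e moved by 1.90 (adjusted p = 0.0072, exact permutation test). MIR157b and MIR157d lay just outside with an adjusted p of 0.052 in the exact permutation test. The correlation over the 12 arrays, a description only since all precursors share the arrays, was 0.93 between MIR157c and MIR157d, 0.85 between MIR157a and MIR157b, and 0.38 between MIR157a and MIR157c. Whether probes of different members share signal was not tested.

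Within those like pairs no difference was past the threshold. The difference between MIR157c and MIR157d moved by 0.43 (exact permutation test, adjusted p = 0.64), and that between MIR157a and MIR157b by 0.37 (adjusted p = 0.38). For MIR156a and MIR156c it moved by 0.60 (exact permutation test, adjusted p = 0.28), at a correlation of 0.84. MIR156e differed from 5 others, among them MIR156c, from which its difference moved by 1.53 between 4 h and 8 h, across the slides (exact permutation test, adjusted p = 0.0072). All 16 pairs that differed were among the 36 without MIR156f. For MIR156f, which 7 of 12 arrays did not measure above background, the test says nothing of its course.

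**Figure D5:**
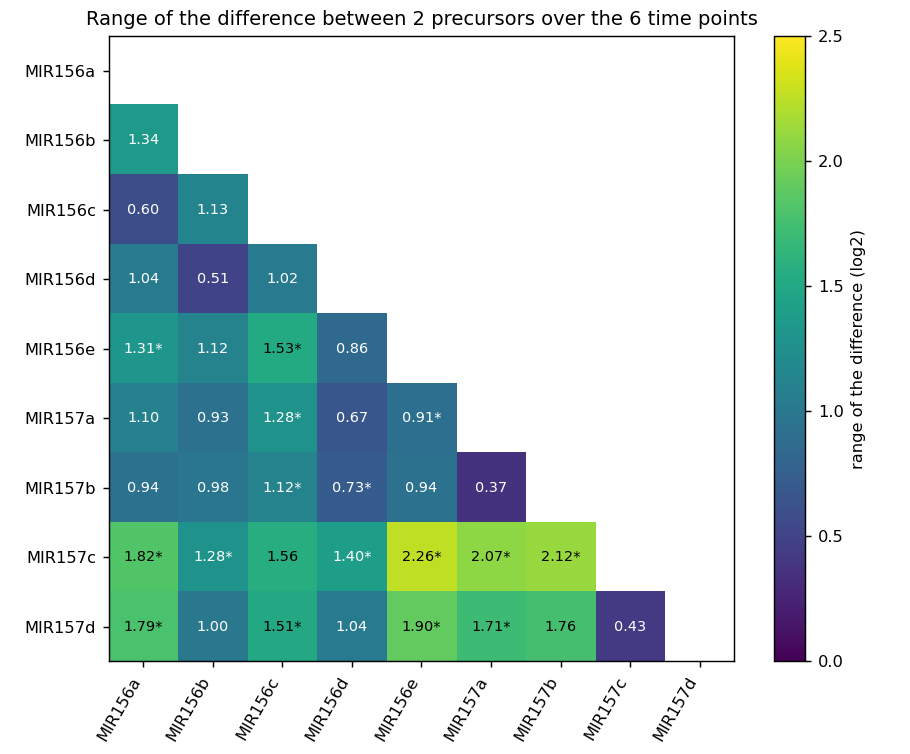
Range over the 6 time points of the difference between 2 precursors (log2, highest minus lowest mean difference, colour and number) for the 36 pairs without MIR156f, with a star where the exact permutation test has an adjusted p under 0.05. The row of MIR157c holds the largest value, 2.26 with MIR156e, and the cell of MIR157c and MIR157d is 0.43.

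Of the pathway around the precursors the array holds little. None of 11 SPL genes and none of 12 miR172 targets and flowering genes looked for matched a probe name in the files used here. Of 10 genes of microRNA biogenesis and action, DCL1 matched, the enzyme that cuts the precursors. It was well above background on all 12 arrays and its means ranged over 0.30 (log2; limma F test, adjusted p = 0.60). All 5 MIR172 precursors, whose microRNA acts later in phase change, had probes. MIR172e was well above background on 12 arrays and MIR172b on 9, MIR172a on 1, and MIR172c and MIR172d on 0. Of the 2 that could be tested none passed the F test of limma, with adjusted p-values of 0.11 for MIR172b and 0.25 for MIR172e, and 1 of them had an unadjusted p under 0.05.

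For 2 members a longer non-coding transcript that overlaps the gene was on the array. AT5G26146, a long non-coding RNA that overlaps MIR156f, was well above background on all 12 arrays, unlike MIR156f itself. Its levels were highest at 12 h, at 0.23 and 0.07, and lowest at 16 h, at -1.52 and -1.29, and these arrays did not overlap. Its range of means was 1.55 ± 0.18 (log2, SE, 2 arrays each; limma F test, adjusted p = 0.0059). Its correlation with MIR156f over the 12 arrays was 0.49. AT4G30975, which overlaps MIR156b, had a range of 0.53 (limma F test, adjusted p = 0.22) and a correlation of 0.12 with MIR156b. Whether the probes of overlapping genes share signal was not tested.

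The transcripts whose levels ran most like those of the 3 members past the F test were picked by Pearson's correlation over the 12 arrays, and all share these arrays. For MIR157c they were the non-coding RNA AT4G13495, MIR863 and MIR850, each at 0.97, and in the gene table AT4G13495 overlaps the genes of both precursors. For MIR157d they were MIR163 at 0.95, MIR863 at 0.93 and MIR157c itself at 0.93. All of these had their highest mean at 12 h and their lowest at 20 h. For MIR156d they were HFR1, a transcription factor of light signalling, at 0.91, the long non-coding RNA AT3G52605 at 0.88, and CCA1, a transcription factor of the circadian clock, at 0.87. HFR1 shared with MIR156d a top at 4 h and a lowest mean at 20 h, and CCA1 had its top at 8 h.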

How the data were processed

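Each of the 12 leaf samples was read on 1 array. Per the file headers, the deposited scanner files give an intensity per spot, from Agilent Feature Extraction 10.5.1.1, background-corrected and not scaled between arrays. A deposited table of the series gives log2 values for all 15013 probes, made by a method not given in the sources used here, with scale log2, a common centre, and exact normalization unknown. Marks for spots (well above background, saturated, outlier) are the program's.

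Groups came from sample titles. Control and outlier spots were left out, the level was log2 of the processed signal minus the array's 75th percentile, and the probe of highest mean signal stood for each name. All arrays entered 1 linear model per comparison in limma (version 3.58.1, R 4.3.3). The number of arrays sets the precision. The members and lists were chosen with earlier results of these data known. All members are named; other names are members of fixed pathway lists, overlapping loci, and, per member past the F test, the 3 named transcripts of highest correlation (unnamed TU codes are left out). Loci and overlaps came from a RefSeq gene table (TAIR10.1), in which all 10 members were found. Array headers name another build, so no coordinates are given. Other scalings, background corrections (normexp on the median signal, since the mean signal is not in the files used here), probe and filter rules, array weights, slides, a replicate block and left-out arrays were tried. Code was tested on simulated data.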

Additional observations from a re-analysis of the deposited data

How the results depend on the processing

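The F test passed 3 members as reported. It passed 1 with quantile normalization (12.7% of all transcripts) or the deposited series table (12.8%). It also passed 1 with no filter on dim probes (4.09%) or within slide 2 (4.12%). It passed 6 with normexp and quantile normalization (20.4% of all transcripts) or with array weights (22.1%). When only transcripts above background on all arrays were tested, 8 of 8 members passed, as did 45.3% of all transcripts. Leaving out 1 array gave 1 to 5. The 5 came without the first 16 h array, where 38.7% of all transcripts passed. The cosine passed 1 member, and 0 with the percentile over all probes (92 of 3302 transcripts) or with no filter (62 of 5154). It passed 2 with normexp (287 of 3302 transcripts), with normexp and quantile normalization (254) or with slide as a term (224). With the stricter filter it also passed 2, beside 308 of 1520 transcripts. Leaving out 1 array gave 0 to 1. Dark minus light passed 1 member, beside 331 of 3302 transcripts. It passed 0 with the percentile over all probes (133 of 3302), the deposited series table (273), no filter (157 of 5154) or within slide 2 (28 of 3302). With the stricter filter 3 of 8 members passed, beside 417 of 1520 transcripts. Without both 16 h arrays, an alternative chosen after seeing the data, it passed 2, beside 254 of 3302. Leaving out 1 array gave 0 to 2. The count of 2 came without the first 16 h array (703 of 3302) or the second (425). The steps held 5 calls, 8 with the percentile over all probes, 11 with normexp and quantile normalization and 12 with the stricter filter. From 12 h to 16 h, 9.45% of all transcripts were called as reported, and 13.1%, 10.6% and 23.4% under these settings in that order. The calls were 2 with array weights, 1 without both 16 h arrays, and 0 with no filter. Within slide 1 or within slide 2, where fewer steps could be tested, there were 0. Leaving out 1 array gave 0 to 7. The 7 came without the first 16 h array, where 32.5% of all transcripts were called from 12 h to 16 h. Of the 45 pairs 16 differed, 25 with normexp, 30 with normexp and quantile normalization, and 10 with the deposited series table; leaving out 1 array gave 6 to 26. The stricter filter tests fewer transcripts, and leaving out an array or a slide leaves fewer samples. The cause of the changed counts was not tested for any setting.

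Direction turned for dark minus light in members that were not past the threshold: with normexp for MIR156b (0.022), MIR156d (0.030) and MIR156f (0.10), with the percentile over all probes for MIR156c (-0.072) and MIR157b (-0.0039), with quantile normalization (-0.048) and the series table (-0.056) for MIR157b, within slide 2 for MIR156c (-0.45) and MIR156e (0.28), and for MIR156c without 1 array (-0.067 to 0.15 over the arrays left out, and below 0 without the first array at 12 h, at 16 h, -0.016, or at 20 h, -0.0059). MIR157c from 16 h to 20 h gave 0.0068 with the percentile over all probes. With the replicate block the F test passed 3 members (14.2% of all transcripts) and the cosine 1 (95 of 3302 transcripts). Dark minus light passed 1 (8.9%), and the steps held 4 calls (9.72% of all transcripts from 12 h to 16 h). The 3 members past the F test were not those reported: MIR156d was lost (adjusted p = 0.059, limma) and MIR156c gained (0.044). Among the steps MIR157a from 8 h to 12 h was lost (limma, adjusted p = 0.068). The correlation of replicate differences over 15 pairs of time points ran from -0.10 to 0.19, with 5 pairs over 0.1. Whether arrays of the same replicate number are linked was not settled by these values. Slide as a random block was not run, since every time point lies on 1 slide. Signal over background limits MIR156b and MIR156f.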
